A study of Mus musculus with 14 samples.

Results

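Homologous recombination, Fanconi and replication-stress genes were described in sorted microglia, macrophages that live in the brain, after a transient stroke. The list holds 34 genes, named by symbol and not by a threshold on their values, but chosen with earlier results of these data known. Of these, 32 had an array row annotated to exactly 1 gene symbol and were measured, among 19938 such genes on the array, while Xrcc2 and Rbbp8 had none. A symbol with several rows was represented by its brightest row, judged by the mean of the 14 arrays.

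Microglia were sorted from the cortex of the operated side of male mice (strain C57BL/6J, 12 to 14 weeks of age), and their total RNA was hybridised to Affymetrix Mouse Gene 1.0 ST arrays. Ischaemia/reperfusion (I/R) meant that a filament blocked the middle cerebral artery for 15 min under isoflurane and blood flow then returned for 72 h, and the other animals had sham surgery. The groups were TLR4-/- after I/R (n = 3, lettered B, C and D), TLR4-/- after sham (n = 3, lettered A, B and D), wild type after I/R (n = 4, lettered A to D) and wild type after sham (n = 4, lettered A to D), each named from the genotype and treatment stated for the sample. Toll-like receptor 4 (TLR4) senses bacterial lipopolysaccharide and molecules set free by damaged tissue. Sample titles of the I/R groups read IPC, a term the labels leave undefined. How the TLR4-/- allele was made and which surface markers defined the sort are not stated by the labels. No label ties an array to an animal, so p-values reflect only the spread between arrays, part of which may be technical.

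Homologous recombination repairs a broken chromosome by copying the intact sister strand. Broken ends are cut back to single strands, BRCA1, PALB2 and BRCA2 prepare them for strand invasion, and the joined intermediates are later dissolved or cut. The Fanconi pathway clears crosslinks between strands by attaching ubiquitin to FANCD2 and FANCI, and the ATR and ATM kinases with CHK1 and CHK2 slow the cell cycle while replication forks are stalled or ends are broken. Many of these genes are transcribed in dividing cells in S and G2 phase, and adult microglia divide little until injury.

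Values are log2 signal, so a difference of 1 is a 2-fold change. A gene was called where the adjusted p of limma, a linear model test, was under 0.05 after Benjamini-Hochberg adjustment over all 19938 genes. Background was taken as 4.67, the 95th percentile of the means of 1027 olfactory receptor genes. Checked against the label, the mean of 11 microglia markers lay between 10.8 and 11.3 on every array. The single Tlr4 row read 7.62 to 8.40 in TLR4-/- after I/R and 8.15 to 8.47 in TLR4-/- after sham, against 8.14 to 8.48 in wild type after I/R and 8.57 to 8.92 in wild type after sham. Tlr4 was called lower in neither comparison of genotypes (adjusted p = 0.634 after I/R and 0.920 after sham), although its TLR4-/- sham arrays lay below its wild-type sham arrays. Whether that row lies in the deleted part is not known here, so it did not check the genotypes, and TLR4-/- below means the arrays labelled so. All 3 TLR4-/- I/R arrays and all 4 wild-type sham arrays correlated over all genes, on average, at least as closely with the other genotype under the same surgery as with their own group. The gap was widest for wild-type sham array C (mean r of 0.985 with its own group and 0.989 with TLR4-/- sham) and for TLR4-/- I/R array D (0.987 with its own group and 0.991 with wild-type I/R). Because of this gap they are called the arrays that stood apart below. Array D was not the one least like its own group, which was array B (0.986).

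Promoter sequences are shown for 3 of the genes that rose most, 1 for each of a helicase, a kinase and a Fanconi protein, and for Atm, which was called in no comparison. They are RefSeq windows of build GRCm38.p6, 250 bases before to 50 bases after the start of the gene, read 5′ to 3′ on the gene's own strand. Capitals mark GCGGGAA, the reverse complement of TTCCCGC, a core word of E2F binding sites. E2F proteins are the factors that switch on many S-phase genes. The windows are Brip1 at chr11:86201144-86201443 on the minus strand, Chek1 at chr9:36726609-36726908 on the minus strand, Fanci at chr7:79392088-79392387 on the plus strand and Atm at chr9:53536622-53536921 on the minus strand.
Brip1: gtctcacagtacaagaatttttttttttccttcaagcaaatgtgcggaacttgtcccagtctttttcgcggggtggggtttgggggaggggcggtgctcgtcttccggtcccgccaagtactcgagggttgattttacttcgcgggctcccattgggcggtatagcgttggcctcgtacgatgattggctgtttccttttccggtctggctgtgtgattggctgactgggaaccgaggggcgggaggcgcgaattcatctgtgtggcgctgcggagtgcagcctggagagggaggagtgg
Chek1: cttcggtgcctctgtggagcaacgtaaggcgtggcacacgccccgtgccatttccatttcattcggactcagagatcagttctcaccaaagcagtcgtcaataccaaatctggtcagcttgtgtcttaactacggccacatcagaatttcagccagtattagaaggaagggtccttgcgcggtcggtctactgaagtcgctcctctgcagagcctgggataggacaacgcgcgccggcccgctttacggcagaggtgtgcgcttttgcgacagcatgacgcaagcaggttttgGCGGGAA
Fanci: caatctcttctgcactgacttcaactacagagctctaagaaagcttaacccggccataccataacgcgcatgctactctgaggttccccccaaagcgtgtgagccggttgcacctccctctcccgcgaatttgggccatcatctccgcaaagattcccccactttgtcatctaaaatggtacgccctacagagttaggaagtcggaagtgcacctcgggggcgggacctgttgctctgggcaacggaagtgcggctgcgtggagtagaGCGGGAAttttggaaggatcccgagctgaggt
Atm: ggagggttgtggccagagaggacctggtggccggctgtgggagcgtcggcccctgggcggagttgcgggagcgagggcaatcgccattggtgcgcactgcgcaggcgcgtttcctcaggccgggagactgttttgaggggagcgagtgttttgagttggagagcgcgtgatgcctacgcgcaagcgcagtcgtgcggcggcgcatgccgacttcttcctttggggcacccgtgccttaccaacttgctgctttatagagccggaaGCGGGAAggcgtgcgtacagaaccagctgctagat
In these windows the word begins 43 bases after the start in Chek1, 18 in Fanci and 15 in Atm, and Brip1 holds neither it nor its reverse complement. The words and the genes shown were chosen after the values had been seen.

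Windows were found for 28 of the 32 genes, and Rad54b, Nbn, Exo1 and Fancd2 had none. A gene with several windows was counted where any of them held the word. Searched on both strands, TTCCCGC was present in 10 of the 18 genes that rose after I/R in wild type and had a window. It was present in 3 of the 10 genes with a window that did not rise. The word was present in 7.39% of 15563 array genes with a window and in 5.29% of all 27025 genes with a window. A second E2F word, TTGGCGC, was present in 4 of 18 and in 0 of 10, against 3.86% of the array genes, and Rad51c and Ube2t held both words. At least 1 of the 2 words was present in 12 of the 18 genes that rose, against 10.7% of the array genes. These 12 were Brca1, Bard1, Brca2, Rad51ap1, Rad51c, Fancb, Ube2t, Fanci, Chek1, Chek2, Topbp1 and Msh6. Of the 10 others, 3 held at least 1 word (Fancg, Fancm and Atm). TTTGAA, the core of the CHR element of G2 and M phase genes, was present in 2 of 18 (Bard1 and Eme1) and in 0 of 10, against 17.3%. These are letter matches in a fixed window and were not tested against expression.

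After I/R, 15 of the 32 genes rose and 0 fell in TLR4-/- microglia, and 21 rose and 0 fell in wild-type microglia. In all, 5.04% of the 19938 genes were called higher after I/R in TLR4-/- and 6.15% in wild type. At 2-fold or more, 10 of the 32 rose in TLR4-/- (2.3% of all genes) and 14 in wild type (2.36% of all genes). Every I/R array lay above every sham array for 19 of the 32 in TLR4-/- (11.1% of all genes) and for 21 of the 32 in wild type (7.78% of all genes). The median change over the 32 genes was 0.62 in TLR4-/- and 0.95 in wild type, while the median of all genes was -0.03 in TLR4-/- and -0.06 in wild type. Because the arrays hold RNA of sorted cells in bulk, more cells carrying a transcript and more transcript in each cell cannot be told apart.

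The genes that rose in TLR4-/- were Brca1, Bard1, Rad51ap1, Rad51c, Rad54l, Rad54b, Exo1, Blm, Eme1, Fancd2, Fanci, Brip1, Chek1, Topbp1 and Clspn. All 15 also rose in wild type, where they made up 71.4% of the genes called, and 6 further genes passed the test in wild type alone (Brca2, Fanca, Fancb, Ube2t, Chek2 and Msh6). The 11 genes called in neither genotype were Palb2, Xrcc3, Nbn, Mre11a, Mus81, Fancc, Fancg, Fancl, Fancm, Atr and Atm. After sham surgery, the mean was below background for 8 of the 15 genes that rose in TLR4-/- and for 12 of the 21 that rose in wild type, so those changes were fitted against background signal. On every sham array, 6 of the called genes in TLR4-/- and 9 in wild type were below background. Their means after I/R were 1.12 to 2.74-fold above the background level in TLR4-/- and 1.22 to 3.45-fold above it in wild type. These folds set a mean against a fixed level and carry no error. No gene of the list had a mean below background in all 4 groups.

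**Figure D1:**
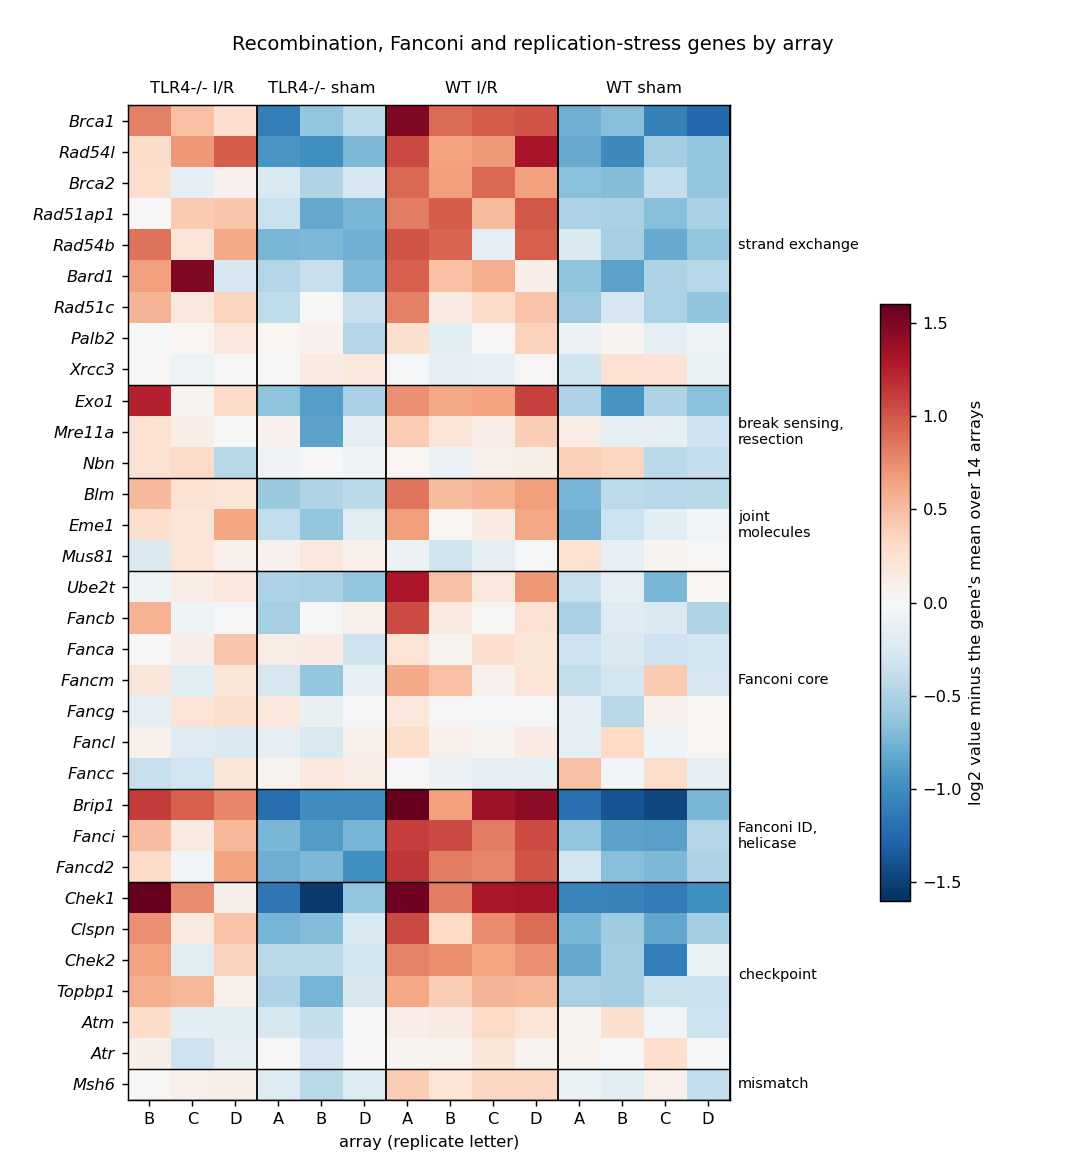
Values of the 32 genes (rows, grouped by role) on the 14 arrays (columns, grouped by genotype and surgery, with replicate letters). Colour is the log2 value minus the gene's own mean over the 14 arrays. Red I/R columns beside blue sham columns mark the genes that rose, and the pale rows, such as Atr, Xrcc3 and Palb2, were called in neither genotype.

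Among the 9 measured genes of strand exchange, 6 rose in TLR4-/- and 7 in wild type. Brca1, which with Bard1 forms a ubiquitin ligase that promotes resection, read 5.94, 5.61 and 5.40 in TLR4-/- after I/R, against 4.02, 4.50 and 4.71 in TLR4-/- after sham. In wild type it read 6.61, 6.03, 6.10 and 6.14 after I/R, against 4.36, 4.45, 4.05 and 3.89 after sham. The I/R and sham arrays did not overlap in either genotype. The log2 change of Brca1 was 1.24 ± 0.20 (SE, limma adjusted p = 0.000883) in TLR4-/- and 2.03 ± 0.18 (adjusted p = 5.47e-07) in wild type.

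Rad54l, a translocase that drives strand pairing, read 5.99, 6.39 and 6.68 in TLR4-/- after I/R, against 4.77, 4.72 and 4.98 after sham. In wild type Rad54l read 6.75, 6.34, 6.38 and 7.01 after I/R, against 4.89, 4.68, 5.14 and 5.09 after sham. Its changes of 1.53 ± 0.19 in TLR4-/- (adjusted p = 6.20e-05) and 1.67 ± 0.17 in wild type (adjusted p = 3.13e-06) were the largest of this role apart from that of Brca1 in wild type. Its relative Rad54b read 5.14, 4.48 and 4.87 in TLR4-/- after I/R, against 3.53, 3.56 and 3.50 after sham, a change of 1.30 ± 0.25 (adjusted p = 0.00332). In wild type Rad54b read 5.28, 5.20, 4.12 and 5.22 after I/R, against 4.04, 3.74, 3.47 and 3.64 after sham, a change of 1.23 ± 0.22 (adjusted p = 0.00121). Array C of wild type after I/R was the low one, just above the highest sham array, and both were below background. TLR4-/- I/R array C and all sham arrays of Rad54b were below background too. Mean Rad54b after I/R was 1.12-fold above the background level in TLR4-/- and 1.22-fold above it in wild type. In log2 these margins were 0.16 and 0.29, less than the SDs of 0.33 and 0.56 between the I/R arrays.

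Bard1 changed by 1.15 ± 0.31 in TLR4-/- (adjusted p = 0.0277) and by 1.15 ± 0.26 in wild type (adjusted p = 0.00961). It read 6.20, 7.03 and 5.27 in TLR4-/- after I/R, the widest spread of any gene and group of the list (SD of 0.88), against 5.07, 5.16 and 4.82 after sham. In TLR4-/- the call of Bard1 was lost when I/R array B, I/R array C or any 1 of the 3 sham arrays was left out, and in a fit of the compared groups only, at adjusted p between 0.0528 and 0.132. Of the other 2 Bard1 rows on the array, 1 changed by 0.99 in TLR4-/- and 1.35 in wild type and was called in both (adjusted p = 0.00274 and 2.12e-05). The remaining row had a change of 0.40 in TLR4-/- and 0.37 in wild type and was called in neither (adjusted p = 0.131 and 0.0922).

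Rad51ap1, which helps strands pair, changed by 0.92 ± 0.16 in TLR4-/- (adjusted p = 0.00135) and by 1.37 ± 0.14 in wild type (adjusted p = 3.26e-06). Rad51c, a mediator of strand exchange, changed by 0.62 ± 0.17 in TLR4-/- (adjusted p = 0.0309) and by 0.93 ± 0.15 in wild type (adjusted p = 0.000417). Without TLR4-/- I/R array B or D, sham array A or D, or both arrays that stood apart, the TLR4-/- call of Rad51c was lost, at adjusted p between 0.0734 and 0.130. Palb2, which bridges BRCA1 and BRCA2, read 4.54 to 4.75 in TLR4-/- after I/R and 4.10 to 4.64 in TLR4-/- after sham, against 4.40 to 4.94 in wild type after I/R and 4.41 to 4.62 in wild type after sham. Its mean was below background in every group but wild type after I/R, and it was called in neither genotype. Xrcc3, which acts with Rad51c, had a log2 change of -0.12 ± 0.14 in TLR4-/- and -0.08 ± 0.12 in wild type and was not called (adjusted p = 0.720 and 0.742).

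Brca2, a mediator of strand exchange that binds single-stranded DNA, passed the test in wild type alone. It read 5.27, 4.83 and 5.06 in TLR4-/- after I/R, against 4.74, 4.50 and 4.72 in TLR4-/- after sham. In wild type it read 5.91, 5.65, 5.90 and 5.64 after I/R, against 4.32, 4.30, 4.60 and 4.37 after sham. The I/R arrays were above the sham arrays in both genotypes, by a narrow margin in TLR4-/-. The change was 0.40 ± 0.14 in TLR4-/- (adjusted p = 0.0947) and 1.38 ± 0.12 in wild type (adjusted p = 4.99e-07). The sham mean of Brca2 was below background in both genotypes.

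**Figure D2:**
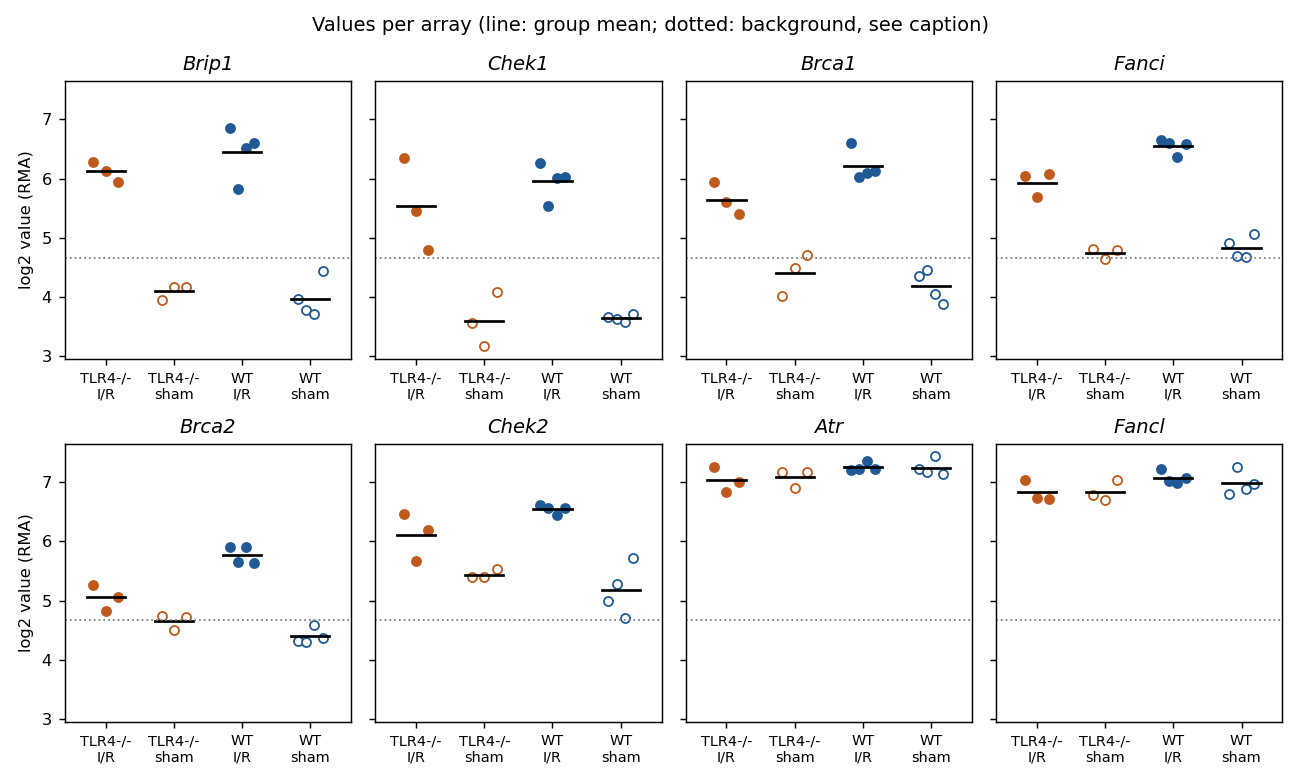
Log2 values on each array for 8 genes, by group. A point is an array, a bar is the group mean and the dotted line is the background level of 4.67. Brip1, Chek1, Brca1 and Fanci lie higher after I/R than after sham in both genotypes, Brca2 after I/R lies lower in TLR4-/- than in wild type, and Atr and Fancl overlap between surgeries.

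Of the 3 measured genes that sense and cut back ends, Exo1 alone rose. Exo1, a 5′ to 3′ exonuclease, read 6.13, 4.94 and 5.21 in TLR4-/- after I/R, against 4.26, 4.01 and 4.37 after sham, a change of 1.21 ± 0.23 (adjusted p = 0.00331). In wild type Exo1 read 5.64, 5.50, 5.54 and 5.99 after I/R, against 4.41, 3.95, 4.40 and 4.23 after sham, a change of 1.42 ± 0.20 (adjusted p = 0.000166). The groups did not overlap, and TLR4-/- I/R array B was the highest of all arrays. Mre11a and Nbn, subunits of the complex that first binds broken ends, were not called. Mre11a had a change of 0.43 ± 0.19 in TLR4-/- (adjusted p = 0.209) and 0.41 ± 0.17 in wild type (adjusted p = 0.144), and it passed the test in wild type when TLR4-/- sham array B was left out (adjusted p = 0.0422). Nbn had a change of 0.07 ± 0.22 in TLR4-/- (adjusted p = 0.915) and 0.05 ± 0.19 in wild type (adjusted p = 0.904), and its second row was not called either.

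Blm and Eme1 rose in both genotypes among the 3 genes that process joined DNA molecules. Blm, the helicase that dissolves double Holliday junctions, read 6.20, 5.94 and 5.90 in TLR4-/- after I/R, against 5.10, 5.21 and 5.26 after sham, a change of 0.83 ± 0.13 (adjusted p = 0.000647). In wild type Blm read 6.54, 6.20, 6.25 and 6.36 after I/R, against 4.95, 5.28, 5.24 and 5.25 after sham, a change of 1.16 ± 0.11 (adjusted p = 2.24e-06). Eme1 and Mus81 form a nuclease that cuts branched DNA. Eme1 changed by 0.78 ± 0.21 in TLR4-/- (adjusted p = 0.0264) and by 0.70 ± 0.18 in wild type (adjusted p = 0.0186). Mus81, its catalytic partner, had a change of -0.08 ± 0.14 in TLR4-/- (adjusted p = 0.807) and -0.19 ± 0.12 in wild type (adjusted p = 0.371) and was not called. The Eme1 call depended on single arrays. In TLR4-/- it was lost without I/R array D, sham array A or sham array B, or without both arrays that stood apart (adjusted p between 0.0765 and 0.111), and in wild type without I/R array A or D or sham array A (adjusted p between 0.0542 and 0.0721).

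All 3 genes of the ubiquitinated Fanconi complex and its helicase rose in both genotypes. Brip1, also known as FANCJ, a helicase that binds BRCA1, had the largest fitted change of the list in both. It read 6.29, 6.13 and 5.95 in TLR4-/- after I/R, against 3.96, 4.17 and 4.18 after sham, a change of 2.02 ± 0.22 (adjusted p = 1.28e-05). In wild type Brip1 read 6.86, 5.82, 6.52 and 6.60 after I/R, against 3.97, 3.79, 3.71 and 4.43 after sham, a change of 2.48 ± 0.19 (adjusted p = 1.32e-07). All sham arrays lay below background and all I/R arrays above it. Mean Brip1 after I/R was 2.74-fold above the background level in TLR4-/- and 3.45-fold above it in wild type.

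Fanci, a subunit of the clamp that receives ubiquitin, read 6.04, 5.68 and 6.08 in TLR4-/- after I/R, against 4.80, 4.65 and 4.80 after sham. In wild type it read 6.64, 6.60, 6.36 and 6.58 after I/R, against 4.91, 4.69, 4.68 and 5.07 after sham. Its change was 1.18 ± 0.14 in TLR4-/- (adjusted p = 2.7e-05) and 1.71 ± 0.12 in wild type, with the lowest adjusted p of the list, 4.24e-08. Its partner Fancd2 read 5.26, 4.91 and 5.59 in TLR4-/- after I/R, against 4.17, 4.23 and 3.97 after sham, a change of 1.13 ± 0.17 (adjusted p = 0.00031). In wild type Fancd2 read 6.10, 5.78, 5.74 and 5.95 after I/R, against 4.65, 4.27, 4.24 and 4.46 after sham, a change of 1.49 ± 0.14 (adjusted p = 1.92e-06). For both subunits every I/R array was above every sham array of its genotype.

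The Fanconi core complex is the ligase that places this ubiquitin. Of the list's 7 measured genes of the core and its ubiquitin enzymes, 0 were called in TLR4-/- and 3 rose in wild type. No difference between these changes was called. Ube2t, the enzyme that hands ubiquitin to the ligase, read 4.74, 4.94 and 5.00 in TLR4-/- after I/R, against 4.32, 4.30 and 4.19 after sham, a change of 0.62 ± 0.23 (adjusted p = 0.115). In wild type Ube2t read 6.12, 5.30, 5.01 and 5.52 after I/R, against 4.45, 4.66, 4.09 and 4.86 after sham, a change of 0.97 ± 0.20 (adjusted p = 0.00367). The arrays did not overlap between surgeries in either genotype, and Ube2t passed the test in TLR4-/- in a fit of the compared groups only (adjusted p = 0.0173) and without wild-type I/R array A (adjusted p = 0.0459). Fancb, also of the core, had a change of 0.31 ± 0.24 in TLR4-/- (adjusted p = 0.530) and rose by 0.73 ± 0.21 in wild type (adjusted p = 0.0345), a call lost without wild-type I/R array A or D, sham array A or D, or both arrays that stood apart (adjusted p between 0.0560 and 0.102). Fanca, a core subunit, had a change of 0.21 ± 0.14 in TLR4-/- (adjusted p = 0.460) and rose by 0.48 ± 0.12 in wild type (adjusted p = 0.0172), a call lost without wild-type I/R array C (adjusted p = 0.0561).

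The other core genes of the list were called in neither genotype. Fancl, the ligase subunit itself, had a change of -0.01 ± 0.14 in TLR4-/- (adjusted p = 0.976) and 0.10 ± 0.12 in wild type (adjusted p = 0.683). Fancm, which anchors the complex to DNA, had a change of 0.41 ± 0.21 in TLR4-/- (adjusted p = 0.288) and 0.47 ± 0.18 in wild type (adjusted p = 0.113). Without wild-type sham array C, which read 4.94 against 4.14, 4.22 and 4.25 on the other sham arrays, the wild-type change of Fancm was 0.66 and passed the test (adjusted p = 0.0125). Fancc had a change of -0.27 ± 0.17 in TLR4-/- and -0.23 ± 0.14 in wild type, and Fancg of 0.10 ± 0.15 in TLR4-/- and 0.16 ± 0.13 in wild type.

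Among the 6 checkpoint genes, 3 rose in TLR4-/- and 4 in wild type, and the 2 kinases that start the response, Atr and Atm, were not among them. Chek1, the kinase that ATR activates at stalled forks, read 6.35, 5.46 and 4.80 in TLR4-/- after I/R, against 3.57, 3.17 and 4.08 after sham, a change of 1.93 ± 0.30 (adjusted p = 0.000429). In wild type Chek1 read 6.26, 5.54, 6.02 and 6.03 after I/R, against 3.67, 3.63, 3.59 and 3.72 after sham, a change of 2.31 ± 0.26 (adjusted p = 9.17e-06). Its sham arrays were all below background. Mean Chek1 after I/R was 1.83-fold above that level in TLR4-/- and 2.45-fold above it in wild type. The TLR4-/- arrays after I/R were spread widely (SD of 0.78), and the lowest of them was still above every sham array. Clspn, the adaptor through which ATR reaches CHK1, changed by 1.00 ± 0.19 in TLR4-/- (adjusted p = 0.00273) and by 1.43 ± 0.16 in wild type (adjusted p = 1.38e-05). Topbp1, an activator of ATR, read 7.65, 7.60 and 7.15 in TLR4-/- after I/R, against 6.57, 6.33 and 6.81 after sham, and changed by 0.90 ± 0.15 in TLR4-/- (adjusted p = 0.000841) and by 0.97 ± 0.13 in wild type (adjusted p = 6.60e-05).

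Chek2, the kinase that ATM activates at breaks, read 6.47, 5.66 and 6.19 in TLR4-/- after I/R, against 5.39, 5.40 and 5.53 after sham, a change of 0.67 ± 0.22 (adjusted p = 0.0687). In wild type Chek2 read 6.61, 6.56, 6.45 and 6.56 after I/R, against 5.00, 5.27, 4.71 and 5.72 after sham, a change of 1.37 ± 0.19 (adjusted p = 9.03e-05). In TLR4-/- the surgeries did not overlap, and Chek2 passed the test without TLR4-/- I/R array C (adjusted p = 0.0216), without wild-type sham array C (adjusted p = 0.0364) or without wild-type sham array D (adjusted p = 0.0313). Atr read 6.84 to 7.26 in TLR4-/- after I/R and 6.90 to 7.17 in TLR4-/- after sham, against 7.21 to 7.36 in wild type after I/R and 7.14 to 7.43 in wild type after sham. The surgeries overlapped in both genotypes, with 95% intervals of the change from -0.32 to 0.23 in TLR4-/- and from -0.23 to 0.25 in wild type. Atm had a change of 0.19 ± 0.16 in TLR4-/- (adjusted p = 0.574) and 0.21 ± 0.14 in wild type (adjusted p = 0.407).

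Msh6, a protein that recognises mismatched bases, passed the test in wild type alone. It read 7.20, 7.26 and 7.28 in TLR4-/- after I/R, against 6.96, 6.75 and 6.96 after sham, a change of 0.36 ± 0.13 (adjusted p = 0.0975). In wild type Msh6 read 7.59, 7.39, 7.51 and 7.51 after I/R, against 7.07, 7.00, 7.27 and 6.79 after sham, a change of 0.47 ± 0.11 (adjusted p = 0.00935).

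**Figure D3:**
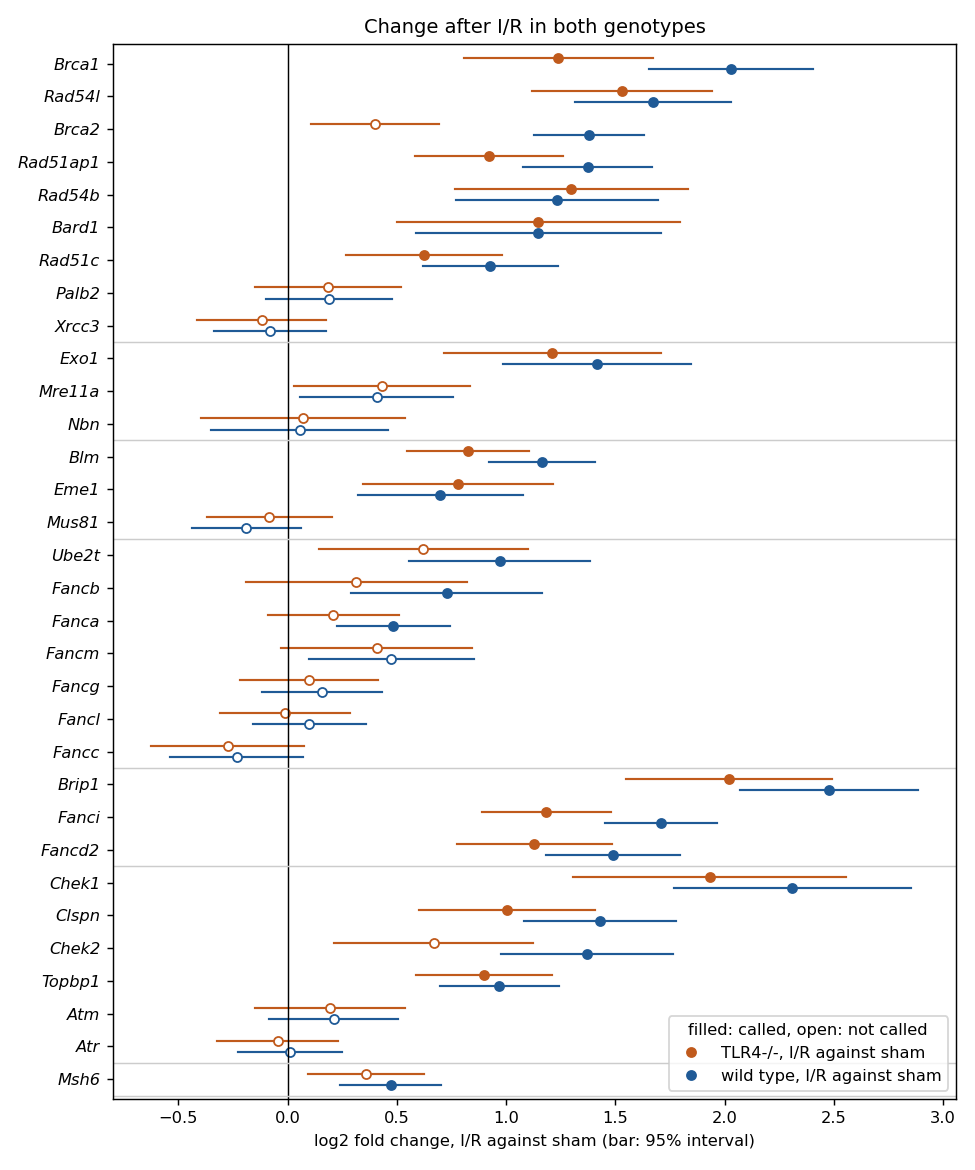
Log2 fold change after I/R against sham for each of the 32 genes, grouped by role, in TLR4-/- and in wild type. Points are limma estimates, filled where called at an adjusted p under 0.05, and bars are 95% intervals. The intervals of the 2 genotypes overlap for all genes except Brca2.

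The question set by the TLR4-/- arm is whether the response to I/R differs without the receptor. For a difference in change between genotypes, limma called 0 of the 32 genes and 0% of all 19938 genes. An unadjusted p under 0.05 was found for 5 of the 32 and for 762 of all genes. The comparisons share arrays with those above and are not separate evidence. The TLR4-/- change minus the wild-type change was negative for 26 of the 32 genes and positive for 6, with a median of -0.13, against 0.02 over all genes. Brca2 had the lowest p, with a TLR4-/- change minus wild-type change of -0.98 (95% interval -1.37 to -0.59, unadjusted p = 5.9e-05, adjusted p = 0.383). Next were Brca1 at -0.79 (interval -1.37 to -0.22), Fanci at -0.52 (interval -0.91 to -0.13), Chek2 at -0.70 (interval -1.31 to -0.10) and Rad51ap1 at -0.45 (interval -0.90 to -0.0039), each at an adjusted p of 1.00. The sham means in TLR4-/- and wild type were below background for Brca2 (4.65 and 4.39), Brca1 (4.41 and 4.19) and Rad51ap1 (4.18 and 4.27). Their differences of changes were thus fitted partly against background signal. Estimates near 0 had intervals of differing width, such as -0.45 to 0.44 for Palb2 and -0.86 to 0.86 for Bard1, the widest of the list. Equal changes were therefore not shown.

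After I/R itself, 26 of the 32 genes had a lower mean in TLR4-/- than in wild type and 6 a higher one, with a median difference of -0.23, against 0.03 over all genes. None was called, while 4 of all genes (0.0201%) were, and 9 of the 32 had an unadjusted p under 0.05, as had 1689 of all genes. For 7 of the 32 every TLR4-/- array was below every wild-type array (Brca1, Brca2, Rad51ap1, Ube2t, Fancd2, Fanci and Msh6), against 3.2% of all genes. Brca2 averaged 5.05 ± 0.22 in TLR4-/- (SD, n = 3) and 5.77 ± 0.15 in wild type (SD, n = 4), a difference of -0.72 (95% interval -0.995 to -0.448, adjusted p = 0.103). With arrays weighted by their quality in limma, this difference was -0.81 and passed the test (adjusted p = 0.0206), and over the 23 other settings its adjusted p lay between 0.0206 and 0.498. Fancd2 averaged 5.25 ± 0.34 in TLR4-/- and 5.89 ± 0.17 in wild type, a difference of -0.64 (adjusted p = 0.379), and Fanci 5.93 ± 0.22 in TLR4-/- and 6.55 ± 0.13 in wild type, a difference of -0.61 (adjusted p = 0.266).

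After sham surgery, 0 of the 32 genes were called between genotypes, 0 had an unadjusted p under 0.05, and the lowest adjusted p was 0.920, while 1 of all genes (0.00502%) was called and 1045 had an unadjusted p under 0.05. The median difference over the 32 genes was -0.04. Fancd2 was the only gene of the list with every TLR4-/- sham array (3.97 to 4.23) below every wild-type sham array (4.24 to 4.65), both under background, with a difference of -0.28 ± 0.16 (adjusted p = 0.931). Such a separation was seen for 1.85% of all genes.

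Genes of cell division moved with the list. Of 19 mitosis and G2 genes, 19 rose in TLR4-/- (median change 2.77) and 19 in wild type (median change 3.20), and of 21 S-phase and replication genes, 20 rose in TLR4-/- (median 1.45) and 19 in wild type (median 1.71). The proliferation marker Mki67 rose by 3.15 ± 0.19 in TLR4-/- (adjusted p = 4.67e-08) and by 3.42 ± 0.17 in wild type (adjusted p = 1.22e-09). Rrm2, a subunit of the enzyme that makes deoxynucleotides, rose by 2.74 ± 0.24 in TLR4-/- (adjusted p = 9.94e-07) and by 3.40 ± 0.20 in wild type (adjusted p = 8.65e-09). Averaged over the mitosis list, the arrays after I/R read 7.59 to 7.75 in TLR4-/- and 8.05 to 8.52 in wild type, and after sham 4.65 to 5.26 in TLR4-/- and 4.55 to 5.28 in wild type. The mitosis mean after I/R was lower on all 3 TLR4-/- arrays than on all 4 wild-type arrays, as was the case for the 7 genes above. The S-phase mean after I/R was 7.37 to 7.53 in TLR4-/- and 7.52 to 7.82 in wild type, and after sham 5.91 to 6.06 in TLR4-/- and 5.89 to 6.13 in wild type. The mean of the 32 genes after I/R was 5.78 to 5.96 in TLR4-/- and 5.96 to 6.28 in wild type, and after sham 5.13 to 5.26 in TLR4-/- and 5.19 to 5.21 in wild type. For the S-phase mean and the mean of the 32 genes, the highest TLR4-/- array after I/R lay just above the lowest wild-type array. The part of cell division in these differences was not tested.

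Markers of monocytes, which can enter the injured brain, also moved with surgery. Of 9 measured markers, 5 rose in TLR4-/- and 6 in wild type, 7 had a mean above background in wild type after I/R, and the mean over the list was 6.19 to 6.36 in TLR4-/- after I/R and 4.74 to 4.95 in TLR4-/- after sham, against 6.27 to 6.90 in wild type after I/R and 4.95 to 5.18 in wild type after sham. Ccr2, the receptor that defines inflammatory monocytes, was not called, with a change of -0.22 ± 0.16 in TLR4-/- (adjusted p = 0.501) and 0.41 ± 0.14 in wild type (adjusted p = 0.0763), and neither were F13a1 and Vcan. Plac8 rose by 3.52 ± 0.44 in TLR4-/- (adjusted p = 4.75e-05) and by 2.59 ± 0.38 in wild type (adjusted p = 0.000195). Ms4a4c rose by 2.89 ± 0.28 in TLR4-/- (adjusted p = 3.26e-06) and by 2.66 ± 0.24 in wild type (adjusted p = 8.93e-07). In TLR4-/- the sham means of Plac8 and Ms4a4c were below background. Vim, Cd44 and S100a4 rose in both genotypes as well, with changes of 1.35 to 2.91 in TLR4-/- and 1.27 to 3.20 in wild type. Chil3 had a change of 0.86 ± 0.37 in TLR4-/- (adjusted p = 0.191) and rose by 1.19 ± 0.32 in wild type (adjusted p = 0.0249), and like Vcan its mean was below background in every group. Of 11 microglia markers, 5 fell in TLR4-/- (list median -0.34) and 7 fell in wild type (list median -0.39), among them Tmem119, at -0.54 ± 0.12 in TLR4-/- (adjusted p = 0.00873) and -0.52 ± 0.10 in wild type (adjusted p = 0.00334). Of 12 neutrophil markers, 0 rose in TLR4-/- and 1, Cxcr2, rose in wild type, though its mean was below background in every group. Of 10 T and NK cell markers, 0 were called in either genotype. In wild type after I/R, 2 of the 12 neutrophil markers and 2 of the 10 T and NK cell markers had a mean above background, among them S100a9 and Cd3e. The neutrophil list averaged 3.74 to 3.95 in TLR4-/- after I/R and 3.79 to 3.96 in TLR4-/- after sham, against 3.602 to 4.46 in wild type after I/R and 3.70 to 3.92 in wild type after sham. The defining genes Ly6g and Cd3g were below background in every group, while Cd3e averaged 4.96 in TLR4-/- after I/R and 5.16 in TLR4-/- after sham, against 4.92 in wild type after I/R and 4.98 in wild type after sham. The part of a change in cell make-up in the results was not tested.

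Other genes of the same pathways were measured beside the list. Of 31 other homologous recombination genes, 11 rose and 1 fell in TLR4-/- (median change 0.09), and 13 rose and 0 fell in wild type (median 0.41). Dna2, a nuclease and helicase of resection, rose by 1.75 ± 0.16 in TLR4-/- (adjusted p = 1.59e-06) and by 2.07 ± 0.14 in wild type (adjusted p = 2.04e-08). Parpbp, which restrains recombination, rose by 2.06 ± 0.22 in TLR4-/- and 2.53 ± 0.19 in wild type. Fignl1, an ATPase of recombination, rose by 2.29 ± 0.25 in TLR4-/- and 2.65 ± 0.22 in wild type. Polq, the polymerase of an end-joining route that uses short matching stretches, rose by 0.65 ± 0.15 in TLR4-/- and 1.22 ± 0.13 in wild type. For Dna2, Parpbp, Fignl1 and Polq the sham mean was below background in both genotypes. Top3a, the topoisomerase that works with BLM, was the gene that fell in TLR4-/- (-0.52 ± 0.15, adjusted p = 0.0481), and it was named after its value was seen.

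Of 17 other Fanconi genes, 2 rose and 0 fell in TLR4-/- (median -0.06), and 2 rose and 1 fell in wild type (median -0.01). Cenps, a histone-fold partner of FANCM, rose by 0.86 ± 0.18 in TLR4-/- (adjusted p = 0.00565) and by 1.61 ± 0.16 in wild type (adjusted p = 1.81e-06). Rfwd3, a ubiquitin ligase that acts on RPA, rose by 0.49 ± 0.14 in TLR4-/- and 0.48 ± 0.12 in wild type. Fance, a core subunit, had a change of -0.38 ± 0.12 in TLR4-/- (adjusted p = 0.0693), which was not called, and fell in wild type (-0.39 ± 0.11, adjusted p = 0.0291).

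Of 24 other replication-stress and checkpoint genes, 6 rose in TLR4-/- (median 0.15) and 7 in wild type (median 0.30), and 0 fell in either. Wee1, the kinase that holds CDK1 inactive, rose by 1.96 ± 0.14 in TLR4-/- (adjusted p = 1.08e-07) and by 2.51 ± 0.12 in wild type (adjusted p = 1.19e-09), while Cdc25c, the phosphatase that opposes it, rose by 1.65 ± 0.26 in TLR4-/- and 2.49 ± 0.23 in wild type. Mastl, a kinase of mitotic entry, rose by 2.93 ± 0.33 in TLR4-/- and 2.66 ± 0.28 in wild type. Its sham means of 2.99 in TLR4-/- and 3.69 in wild type were below background, so these changes were fitted against background signal. The sham mean was below background for Cdc25c in both genotypes too, and for Wee1 in wild type. Rad18, a ubiquitin ligase at stalled forks, rose by 0.97 ± 0.13 in TLR4-/- and 1.46 ± 0.11 in wild type. Of 13 genes of non-homologous end joining, the route that joins ends without a template, 0 rose and 1 fell in TLR4-/- (median -0.19), and 0 were called in wild type (median -0.03). Polm, the end-joining polymerase that fell, had a change of -0.43 ± 0.12 in TLR4-/- (adjusted p = 0.0415) and of -0.34 ± 0.11 in wild type, which was not called (adjusted p = 0.0614). The Ku subunits Xrcc5 and Xrcc6 were not called in either genotype.

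**Figure D4:**
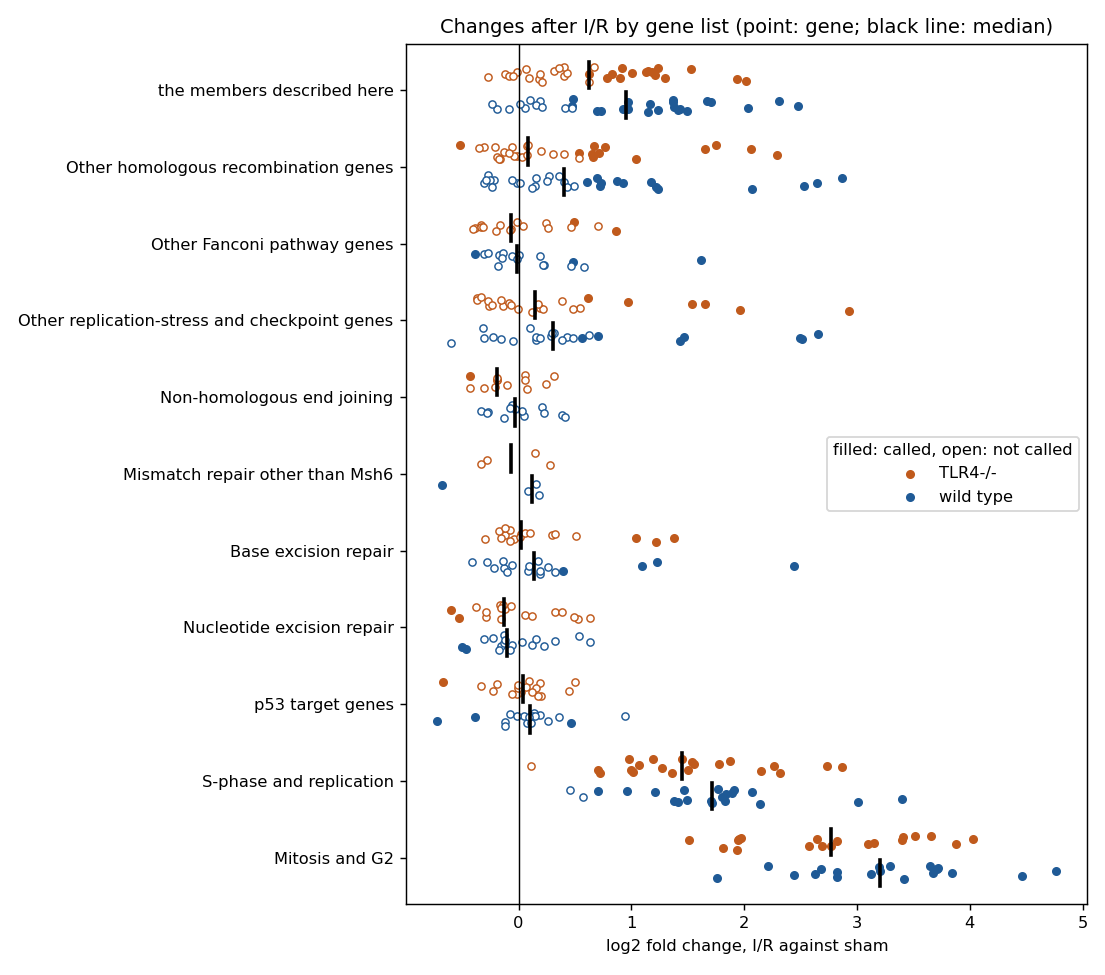
Log2 fold change after I/R against sham by gene list, with TLR4-/- above wild type in each row. A point is a gene, filled where called, and a black line is the list's median. Medians run from -0.19 for non-homologous end joining in TLR4-/- to 3.20 for mitosis and G2 genes in wild type, and the recombination, Fanconi and replication-stress genes described here, in the top row, have medians of 0.62 in TLR4-/- and 0.95 in wild type.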

How the data were processed

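Sorted microglia were profiled on 14 arrays, in 4 groups by the labelled genotype and surgery. The authors deposited 1 log2 value for each array row and sample. The authors obtained them with RMA in the oligo package, per the submitters' processing notes, which state no version. RMA corrects background, equalises the distribution over arrays and summarises probes, which compresses changes of dim genes. Array medians lay between 4.93 and 5.12. Of 35556 rows, 21789 had 1 symbol in the platform annotation, 1621 several and 12146 none, and rows with several or none were left out. The highest-mean row was kept for 999 genes with several rows, which left 19938 genes, of which 12533 (62.9%) had a mean above background.

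All 14 arrays entered 1 model of 4 group means with limma 3.58.1 (R 4.3.3; lmFit, then eBayes; two-sided, Benjamini-Hochberg over all genes), checked on simulated data. Tests covered 5 comparisons, namely I/R against sham in each genotype, the TLR4-/- change minus the wild-type change, and TLR4-/- against wild type after each surgery. Errors are SE of a change or SD of a group. Precision is set by how many arrays each group holds, since arrays have no depth. Genes of the list and the lists beside it were chosen with earlier results of these data known. Every gene of the list was to be described by role, and from other lists at most 4 genes with the smallest p in wild type were to be named. The genes Mki67, Tmem119, Vim, Cd44, S100a4, Ccr2, Chil3, Vcan, Plac8, F13a1, Cxcr2, S100a9, Cd3e, Ly6g, Cd3g, Xrcc5 and Top3a were named as markers or subunits, or after their values were seen. The alternatives were a replicate block, 2 kinds of centring, trend and robust variances, array weights, fits of the compared groups only, a filter on dim genes, the mean of all rows of a gene, and leaving out arrays.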

Additional observations from a re-analysis of the deposited data

Results flagged for a closer look

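In the groups of 4 wild-type arrays, 64 sets of values were checked for a single array far from the rest, and 5 were found, while chance gives about 1 in 20. In each, the gap between 1 array and the nearest other was a larger share of the group's range than Dixon's 95% critical value. After I/R in wild type, Rad54b read 4.12 on array C, against 5.20 to 5.28 on the other 3 arrays. Atr read 7.36 on the same array, against 7.21 to 7.23. After sham surgery in wild type, Rad51ap1 read 4.14 on array C, against 4.30 to 4.33, and Fancm read 4.94 on array C, against 4.14 to 4.25. Blm read 4.95 on sham array A, against 5.24 to 5.28. The wild-type sham array C was also among the arrays that stood apart over all genes.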

How the results depend on the processing

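Over 23 other settings none of the 15 genes called after I/R in TLR4-/- and the 21 in wild type changed sign, and 12 and 18 of them were called under every setting that tested them (the filter on dim genes removed Rad54b). Genes that were not called changed sign under some setting, namely 4 and 2 in these comparisons, 16 of 32 in the difference of changes, 13 between genotypes after I/R and 12 after sham. Without 1 array at a time, 12 to 16 genes were called in TLR4-/- and 19 to 22 in wild type. Without both arrays that stood apart (wild-type sham C and TLR4-/- I/R D, chosen after the data were seen), the counts were 13 in TLR4-/- and 21 in wild type. Without dim genes, 14 of 29 and 20 of 29 were called in TLR4-/- and wild type. The count for TLR4-/- against wild type after I/R was 0, and 1 (Brca2) with array weights. The difference of changes could not be fitted to the compared groups only.

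Arrays of the same letter deviated together little more than other arrays did. Over 18 same-letter pairs the correlation of deviations was -0.10 to 0.28 (median 0.04), 3 of them over 0.1. Over 55 different-letter pairs it was -0.26 to 0.24 (median -0.01), 6 of them over 0.1. On these values the letters were not taken as pairs. With the letter as a replicate block, 17 genes were called after I/R in TLR4-/- and 21 in wild type, and 0 in each of the other 3 comparisons. The 2 added in TLR4-/- were Ube2t (adjusted p = 0.0326) and Chek2 (adjusted p = 0.0173).

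Centring each array on its median over all rows, chosen after the data were seen, left 15 and 21 genes of the list called in TLR4-/- and wild type. Among all genes it moved the share of higher calls to 71.3%, against 61.7%, in TLR4-/- and to 76.8%, against 62.9%, in wild type (1693 called, of which 1300 higher). All genes called in TLR4-/- numbered 1628, and 1071 without I/R array C and 970 without sham array A. Between genotypes the count over all genes was 4 after I/R (0 to 7 over settings) and 1 after sham (0 to 10). The cause was not tested. With 3 or 4 arrays a group, the median SE of a change over the list was 0.168 in TLR4-/- and 0.146 in wild type, and the sham mean was below background for 13 of the 32 genes in TLR4-/- and 14 in wild type.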

Other observations

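Other DNA repair routes held called genes as well. Of 18 base excision repair genes, 3 rose in TLR4-/- (median 0.02) and 4 in wild type (median 0.13), and 0 fell. The genes that rose were Neil3, a glycosylase for oxidised bases, at 1.38 ± 0.18 in TLR4-/- and 2.44 ± 0.16 in wild type, the DNA ligase Lig1, at 1.04 ± 0.17 in TLR4-/- and 1.23 ± 0.15 in wild type, the flap nuclease Fen1, at 1.22 ± 0.18 in TLR4-/- and 1.09 ± 0.15 in wild type, and, in wild type alone, Parp1 at 0.39 ± 0.11. The sham means of Neil3 and Fen1 were below background in both genotypes. Lig1 and Fen1 also act in DNA replication. Of 18 nucleotide excision repair genes, 0 rose and 2 fell in each genotype, the damage sensors Ddb2, at -0.60 ± 0.13 in TLR4-/- (adjusted p = 0.00764) and -0.46 ± 0.11 in wild type (adjusted p = 0.0138), and Xpc, at -0.53 ± 0.16 in TLR4-/- (adjusted p = 0.0482) and -0.50 ± 0.14 in wild type (adjusted p = 0.0269). Of 4 measured mismatch repair genes other than Msh6, 0 were called in TLR4-/- (median -0.07) and 1 fell in wild type (median 0.12), namely Pms2 at -0.68 ± 0.18 (adjusted p = 0.0260).

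Of 18 measured p53 targets, 0 rose and 1 fell in TLR4-/- (median 0.04), and 1 rose and 2 fell in wild type (median 0.10). Rrm2b, a ribonucleotide reductase subunit, fell in both, by 0.67 in TLR4-/- (adjusted p = 0.0255) and by 0.72 in wild type (adjusted p = 0.00500). Ccng1 rose in wild type (0.47 ± 0.12, adjusted p = 0.0165), where Sesn1 fell (-0.39 ± 0.10, adjusted p = 0.0242). Cdkn1a and Bax were not measured here. Of the 8 E2F factors, 3 rose in TLR4-/- (median 0.30) and 5 in wild type (median 0.51). E2f8, a repressor of the family, had the largest of these changes, 2.04 ± 0.16 in TLR4-/- (adjusted p = 2.62e-07) and 2.64 ± 0.14 in wild type (adjusted p = 1.54e-09). Its sham mean was below background in both genotypes.

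Among markers of other brain and blood cells, B cell markers had 1 of 6 higher and 1 lower in TLR4-/- and 1 higher in wild type, and border-associated macrophage markers had 1 of 9 lower in TLR4-/- and 1 higher in wild type. Of 7 endothelial markers, 1 fell in TLR4-/-, and 2 rose and 1 fell in wild type. Of 7 astrocyte markers, 1 fell in each genotype, of 7 oligodendrocyte markers 1 rose in wild type, and of 7 neuron markers 0 were called in either genotype.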
